A study of Mus musculus with 16 samples.

Results

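The comparison concerns neuroendocrine carcinomas (NECa) of the prostate in TRAMP mice, 3 from mice given AGN, an extract made from the root of Angelica gigas Nakai, and 3 from mice given vehicle. The members were chosen by label alone: the 6 carcinoma arrays of a series of 16 Illumina bead arrays, the other 10 being 8 of dorsal-lateral prostate (DLP) and 2 of whole prostate. TRAMP mice carry SV40 T antigen under the probasin promoter, which is active in prostate epithelium, and all 6 carcinomas share this transgene. The whole prostates were labelled wild-type and came from mice of 24 to 28 weeks, although their strain field names TRAMP. DLP was taken at 16 and 28 weeks from wild-type mice and from TRAMP mice given vehicle, AGN or decursin with decursinol angelate (D/DA), with 1 array for each combination. The AGN dose, the age of the carcinoma mice and whether the 3 carcinomas of a group came from separate mice are not given in the labels, so the p-values cover only the spread among these arrays, which may be technical in part. Genes of chromosome 19 are left out here, and 16005 genes elsewhere in the genome are described, each by the probe with the highest mean over the 16 arrays.

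Neuroendocrine prostate carcinoma is a tumour of cells that no longer make the androgen-dependent secretory proteins of the gland. Its cells instead carry a neuron-like programme: transcription factors of neural development, granins and other contents of dense-core vesicles, peptide hormones and their processing enzymes, and the machinery of vesicle release. In TRAMP mice such tumours arise besides the glandular lesions of the dorsal-lateral lobes.

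The labelled tumour type was checked against its markers. Chga, the vesicle protein chromogranin A, had intensities of 1335, 1150 and 1395 in vehicle carcinomas 1 to 3 and of 1501, 1219 and 1843 in AGN carcinomas 1 to 3, against 146.6 and 151.1 in the wild-type prostates. Insm1, a transcription factor of neuroendocrine differentiation, lay between 3676 and 5607 in the carcinomas and at 153.4 and 137.8 in the wild-type prostates. Ddc, the aromatic amino acid decarboxylase, lay between 4548 and 9074 in the carcinomas and at 202.3 and 267.4 in the wild-type prostates. Pbsn, the androgen-driven secretory protein probasin, ran the other way, with 141.7 to 157.0 in the carcinomas and 2199 and 3310 in the wild-type prostates. These 4 genes separate every carcinoma from both wild-type prostates, and the values of AGN and vehicle carcinomas overlap in each of them.

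A deposited intensity is linear and normalized by the authors, with a median over probes of 154.8 to 166.4 in the 6 carcinomas, so a value near 160 lies at the level of the array's dim probes. Log2 differences of genes that reach this level are low estimates, and detection calls were not used here. No values were identical between arrays, and Pearson's r across probes was 0.969 to 0.987 within groups and 0.962 to 0.985 between them. Vehicle 1 and AGN 2 stood apart in markers of other cells. The mean log2 level of 23 fibroblast and matrix markers was 9.66 in vehicle 1 and 8.16 to 8.72 in the other carcinomas, that of 19 macrophage markers was 9.51 against 8.37 to 8.71, and that of 12 smooth muscle markers was 10.18 against 7.79 to 9.09. In AGN 2, 14 prostate secretory markers reached a mean log2 level of 8.17, against 7.13 to 7.54 in the other 5. The part of these cells in the differences below was not tested, and in bulk tissue fewer cells of a type and less RNA per cell cannot be told apart.

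**Figure D1:**
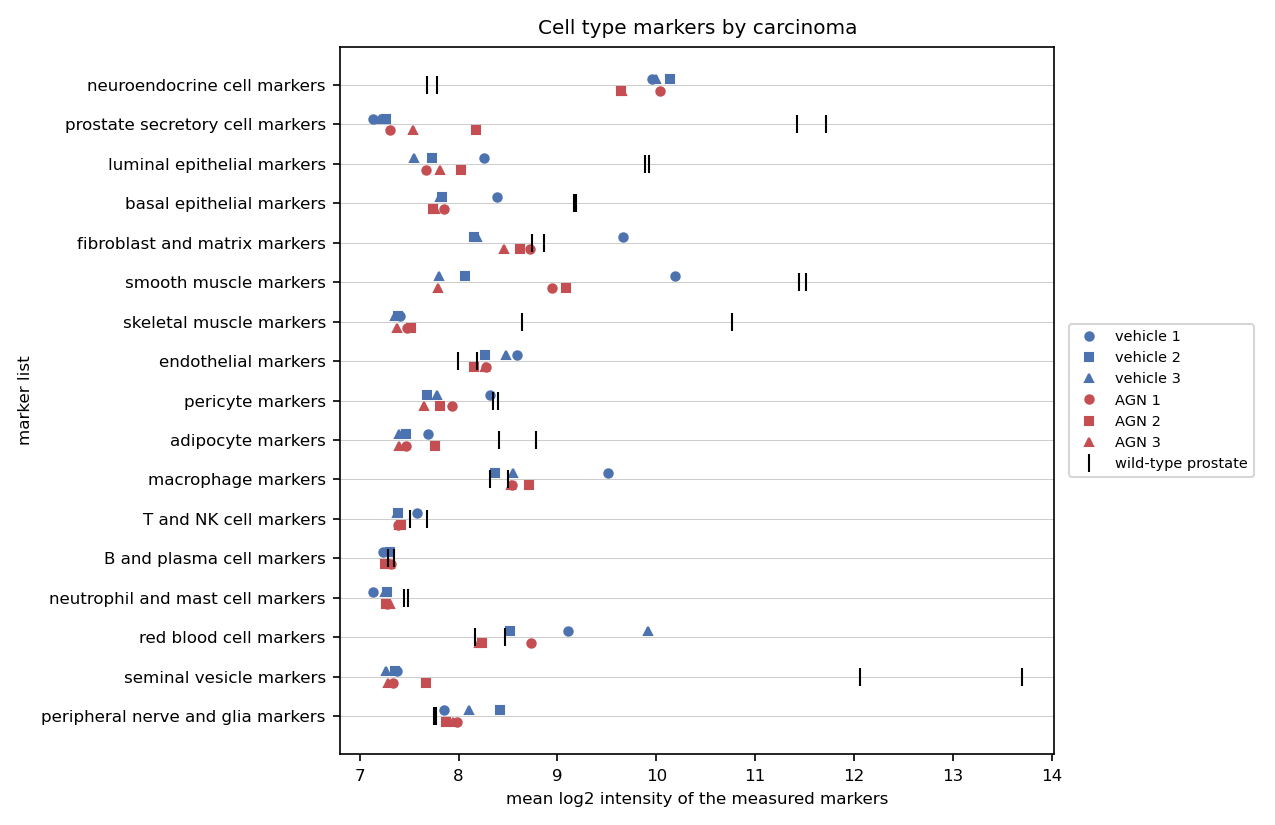
Mean log2 intensity (horizontal axis) of the measured members of 17 cell type marker lists (vertical axis) in each carcinoma, with vehicle carcinomas in blue, AGN carcinomas in red and the 2 wild-type prostates as black ticks. Neuroendocrine markers lie above the wild-type prostates in all 6 carcinomas, vehicle 1 lies highest for fibroblast, smooth muscle and macrophage markers, and AGN 2 lies highest among the carcinomas for prostate secretory markers.

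Few genes separated the groups beyond the spread between tumours. With limma's test and Benjamini-Hochberg adjustment over all 25697 probes, 7 of 16005 genes off chromosome 19 were called at an adjusted p under 0.05, which is 0.0437%. Over all probes, chromosome 19 included, 10 of 25697 were called (0.0389%). Of the 7 genes, 2 rose (0.0125%) and 5 fell (0.0312%) in AGN carcinomas. At an unadjusted p under 0.05 there were 922 genes, or 5.76%, close to the share that this threshold passes when groups do not differ. The 2 genes that rose were Dbx1 and Sct, and the 5 that fell were Fam171b, Dusp26, Wfdc12, Tac1 and the unnamed clone 6330403K07Rik. The number of calls rested on single tumours: it was 52 without AGN 1, 34 without vehicle 3 and 20 without vehicle 1, and 0 without vehicle 1 and AGN 2 together, where limma gave 960 genes at an unadjusted p under 0.05.

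A weaker criterion asked whether all 3 AGN values lay above, or all below, all 3 vehicle values. This separation of 3 against 3 held for 1665 genes off chromosome 19 (10.4%), about the share that a random order of the values gives. Of these genes 1106 were higher (6.91%) and 559 lower (3.49%) in AGN carcinomas. The split depended on scaling, since 66.4% of the separated genes were higher as deposited, 54.9% after quantile normalization, 50.1% after median centring and 46.5% after normexp background correction. It also depended on level. Among the 7269 genes at or under the median probe level, 312 were higher (4.29%) and 41 lower (0.564%). Among the 8736 genes above it, 794 were higher (9.09%) and 518 lower (5.93%). Large differences ran the other way: of 40 separated genes with a log2 difference of at least 1 in size, 10 were higher and 30 lower in AGN carcinomas.

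**Figure D2:**
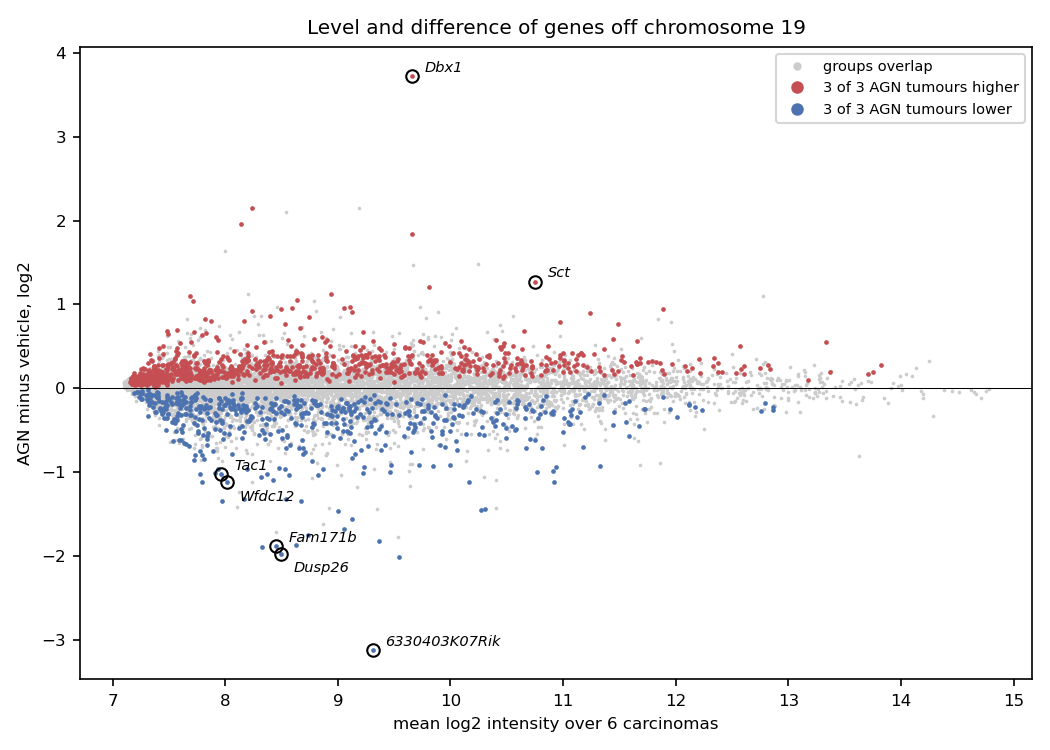
Log2 difference of AGN minus vehicle carcinomas (vertical axis) against the mean log2 intensity over the 6 carcinomas (horizontal axis) for 16005 genes off chromosome 19. Red and blue points are genes whose 3 AGN values lie all above or all below the 3 vehicle values, grey points are the others, and black circles name the 7 called genes, of which Dbx1 (3.73) and 6330403K07Rik (-3.13) lie farthest from 0.

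The largest difference was that of Dbx1 on chromosome 7, a homeobox transcription factor that marks progenitors of ventral interneurons in the developing neural tube. Its intensity was 352.1, 169.8 and 184.6 in vehicle carcinomas 1 to 3 and 1940, 3011 and 4395 in AGN carcinomas 1 to 3. The lowest AGN value thus lay well above the highest vehicle value, and vehicle 2 and 3 were near the dim-probe level. By limma's test the increase of Dbx1 was 3.73 ± 0.32 (log2, SE, n = 3 and 3; adjusted p = 0.00201). It stayed called without any 1 of the 6 tumours, with log2 differences of 3.44 to 4.06. Wild-type prostates had 152.1 and 143.0, and the 8 DLP arrays 128.9 to 144.7.

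The other gene that rose, Sct on chromosome 7, encodes secretin, a peptide hormone of gut endocrine cells that stimulates bicarbonate secretion by the pancreas. Vehicle carcinomas had 1321, 1044 and 994.7, and AGN carcinomas had 3038, 2680 and 2378. All 6 carcinomas exceeded the wild-type prostates (251.9 and 208.2) and the DLP arrays (148.8 to 211.7). The increase of Sct was 1.27 ± 0.17 (log2, SE; adjusted p = 0.0408 by limma). This call was lost without vehicle 2 (adjusted p = 0.146) or AGN 2 (adjusted p = 0.125), while the log2 difference stayed between 1.18 and 1.40. The secretin receptor gene Sctr overlapped between groups, at 142.4 to 157.5 in all 6 carcinomas.

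The promoters of these genes are shown because they are the 2 called genes that rose. RefSeq's table of assembly GRCm38.p6 held 250 bases before to 50 bases after the start for 5 of the 7 called genes. Capitals mark the TATA motif TATAAA, the CCAAT box and the GC box GGGCGG, each searched on both strands with no overlap between them here. TATAAA occurs in 13.6% of all 32851 promoters of that table, the CCAAT box in 37.4% and GGGCGG in 35.7%.
Dbx1 promoter (chr7:49636786-49637085, minus strand): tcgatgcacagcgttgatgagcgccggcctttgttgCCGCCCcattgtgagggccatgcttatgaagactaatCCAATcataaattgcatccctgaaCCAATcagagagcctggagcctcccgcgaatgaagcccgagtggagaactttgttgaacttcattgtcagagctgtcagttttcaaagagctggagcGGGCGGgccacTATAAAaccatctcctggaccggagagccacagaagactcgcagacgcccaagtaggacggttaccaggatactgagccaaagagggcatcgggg
Sct promoter (chr7:141279084-141279383, minus strand): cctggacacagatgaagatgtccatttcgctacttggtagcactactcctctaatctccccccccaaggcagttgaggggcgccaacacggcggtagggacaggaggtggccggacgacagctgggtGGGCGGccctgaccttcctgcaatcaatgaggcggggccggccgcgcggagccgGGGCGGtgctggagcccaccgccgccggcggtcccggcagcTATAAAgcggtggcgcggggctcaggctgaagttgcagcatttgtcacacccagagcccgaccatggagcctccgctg
In Dbx1, TATAAA begins 45 bases before the start, CCAAT 177 and 153 bases before it, and GGGCGG 56 bases before it and, on the other strand, 214 bases before it. In Sct, TATAAA begins 28 bases before the start and GGGCGG 123 and 69 bases before it. The cyclic AMP response element letters TGACGTCA, present in 1.79% of promoters, occur in neither of these windows. These matches describe the letters and were not tested against the expression values.

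Among the genes that fell, the unnamed clone 6330403K07Rik on chromosome 11 had the largest difference. Vehicle carcinomas had 1598, 2348 and 1770, and AGN carcinomas had 338.5, 173.6 and 169.6. AGN 1 was the highest of its group and still below every vehicle value. The clone fell by 3.13 (log2, SE 0.26; adjusted p = 0.00201 by limma). The vehicle carcinomas lay above, and AGN 2 and 3 below, all values of wild-type prostate (400.2 and 423.0) and DLP (273.8 to 535.4).

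Fam171b on chromosome 2 had 706.4, 680.4 and 630.3 in vehicle carcinomas and 230.5, 163.1 and 160.3 in AGN carcinomas. It fell by 1.88 (log2, SE 0.15; limma adjusted p = 0.00201), and AGN 2 and 3 lay below both wild-type prostates (249.9 and 222.4). Dusp26 on chromosome 8, a dual-specificity phosphatase, had 875.7, 812.0 and 513.7 against 217.9, 179.0 and 154.8. It fell by 1.97 (log2, SE 0.20; limma adjusted p = 0.0073), and the wild-type prostates had 176.0 and 180.0. Both genes stayed called without any 1 of the 6 tumours, as did the clone.

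Tac1 on chromosome 6, the precursor of the neuropeptides substance P and neurokinin A, had 328.7, 364.6 and 380.1 in vehicle carcinomas and 202.3, 160.8 and 165.3 in AGN carcinomas. It fell by 1.03 (log2, SE 0.12; limma adjusted p = 0.0125) to the level of the wild-type prostates (165.3 and 200.8). The call was lost without AGN 2 (adjusted p = 0.0802), vehicle 2 (adjusted p = 0.0569) or AGN 3 (adjusted p = 0.0512). Wfdc12 on chromosome 2, of the family of small secreted proteins with a whey acidic protein domain, had 388.6, 405.0 and 355.8 against 168.7, 202.2 and 159.8. It fell by 1.12 (log2, SE 0.12; limma adjusted p = 0.0073) and stayed called without any 1 tumour. Its wild-type prostate values were 491.2 and 213.7 and its DLP values 171.1 to 924.4, so vehicle carcinomas lay inside the range of prostate tissue.

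The AGN values of the 5 genes that fell reached the dim-probe level in at least 1 tumour each, and their log2 differences are low estimates. With background corrected by normexp, or with probes above the median level only, limma called 0 of the 25697 and 12848 probes tested. The adjusted p of the 7 genes then lay between 0.0667 and 0.107, and between 0.0587 and 0.0659, with 2025 and 1318 probes at an unadjusted p under 0.05. Sct and Tac1 were also not called after quantile normalization (limma adjusted p = 0.051 for both), nor Sct (0.149) and Dusp26 (0.0505) after median centring.

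**Figure D3:**
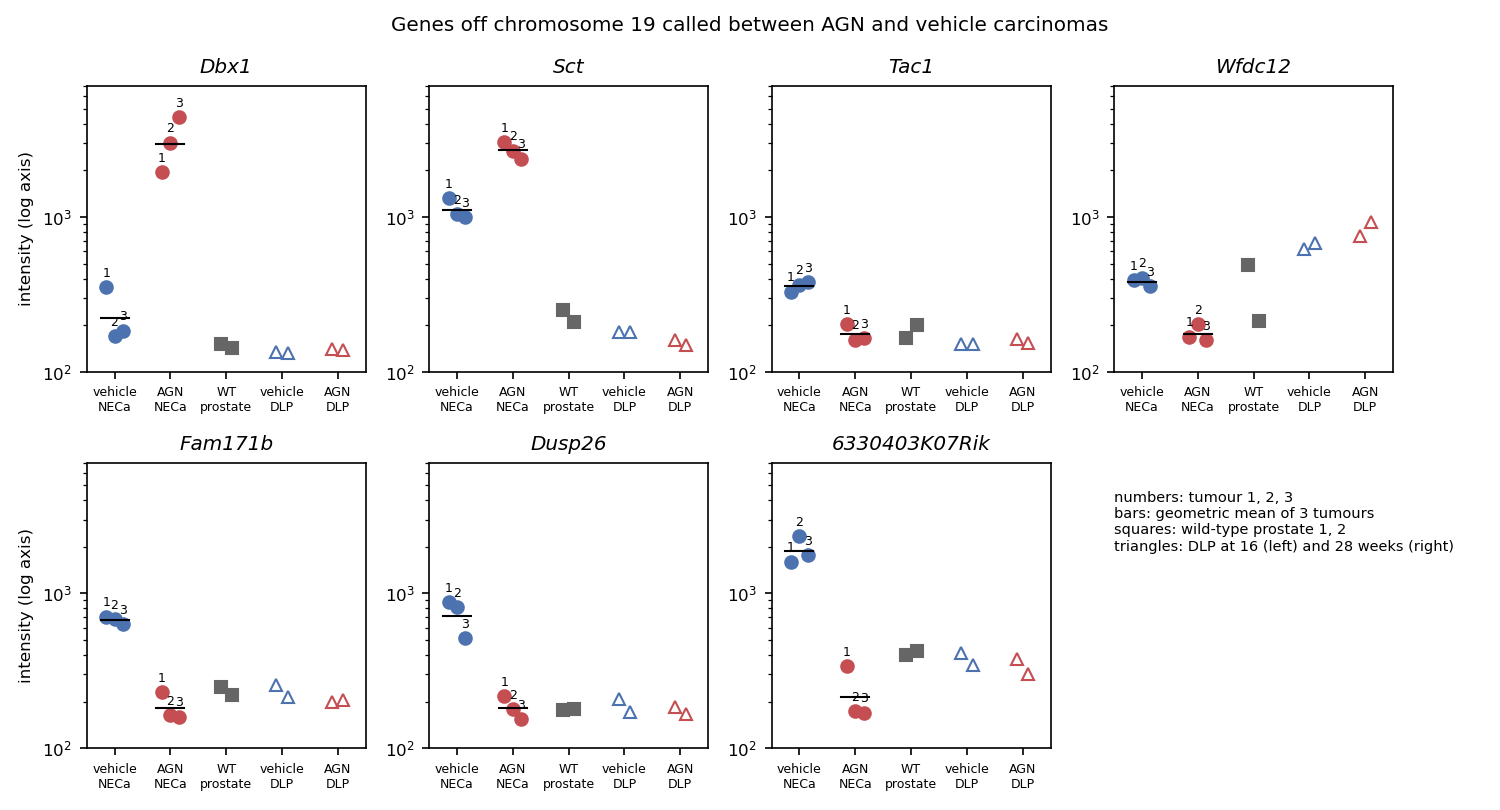
Intensity (vertical log axis) of the 7 called genes in vehicle carcinomas (blue) and AGN carcinomas (red), numbered by tumour, with bars at the geometric mean, beside wild-type prostates (grey squares) and DLP of vehicle and AGN mice (open triangles, 16 weeks left and 28 weeks right). In each panel the 3 AGN carcinomas lie all above or all below the 3 vehicle carcinomas, and only Wfdc12 has DLP values above every carcinoma.

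The AGN effect in NECa was set against that in DLP as the difference of the 2 effects, in 1 limma fit of all 16 arrays. This term uses the carcinoma arrays from which the genes were called, so it is not a separate test of their differences. Dbx1 lay at the dim-probe level in every DLP array (128.9 to 144.7), where a fall could not have been seen. The term was called for 4 of 25697 probes (0.0156%), with 1331 probes at an unadjusted p under 0.05, and these 4 probes belong to Dbx1, Sct, Fam171b and 6330403K07Rik. For Dbx1 the difference of the effects was 3.65 ± 0.42 (log2, SE; limma adjusted p = 0.017), with an AGN effect of 0.07 ± 0.33 in DLP. For Sct it was 1.5 ± 0.20 (adjusted p = 0.0281), beside an AGN effect of -0.22 ± 0.16 in DLP. Fam171b had -1.67 ± 0.20 (adjusted p = 0.017) and 6330403K07Rik had -2.96 ± 0.40 (adjusted p = 0.0281). The Sct term was lost without AGN 2 (adjusted p = 0.0625) or vehicle 2 (adjusted p = 0.0587), and that of the clone without AGN 2 (adjusted p = 0.0625) or without an intensity trend (adjusted p = 0.0509). The term did not reach the threshold for Dusp26 (adjusted p = 0.0503), Tac1 (0.23) or Wfdc12 (0.317).

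Beyond the called genes, 24 genes were named by rule as the 12 highest and 12 lowest log2 differences among separated genes with an unadjusted p under 0.01. Their limma adjusted p lay between 0.124 and 0.49, so none of them passed the test. Among the 12 lowest, Fez1, an adaptor for axonal transport, had 1688, 1581 and 1260 in vehicle carcinomas and 914.4, 332.1 and 166.4 in AGN carcinomas, a log2 difference of -2.02 ± 0.46 (adjusted p = 0.206). A second probe of Fez1 had 1247.4, 1216.2 and 908.3 against 621.7, 302.7 and 164.5. In both probes AGN 1 lay nearest the vehicle tumours and AGN 3 at the dim-probe level. Fam155a, a subunit of the sodium leak channel complex, had the same order, with 1883, 2368 and 2010 against 1620, 819.5 and 341.3. Its log2 difference of -1.44 ± 0.43 was -0.85 without AGN 3.

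The highest of the 12 higher genes named by this rule was Arpp21, a cyclic AMP regulated phosphoprotein of brain, with 529.5, 269.0 and 552.9 in vehicle carcinomas and 901.3, 1917 and 2076 in AGN carcinomas (log2 difference 1.84 ± 0.34, adjusted p = 0.132). Another Arpp21 probe had 348.3, 258.3 and 291.3 against 438.6, 954.8 and 1104.8, and in both probes AGN 1 was the lowest AGN tumour. The remaining 2 probes of Arpp21 lay at 133.8 to 151.9, with differences of 0.03 and 0.08. Draxin, an axon guidance protein, had 185.9, 240.9 and 235.0 against 329.7, 474.8 and 460.3 (0.93 ± 0.16, adjusted p = 0.124). Dner, a neuronal transmembrane protein that can bind Notch, had 2593, 1327 and 1601 against 3211, 3011 and 3695. Rprm, a p53-inducible protein of G2 arrest, had 447.3, 304.6 and 266.2 against 539.7, 845.8 and 832.5. The Wnt receptor Fzd10 had 404.2, 202.4 and 258.3 against 551.1, 529.5 and 644.2, and 2 further Fzd10 probes were also separated and higher. The others of this set were Rasl11b, Cldnd1, Bves, Sertad2, Erdr1, the ephrin receptor Ephb1 and the Rac regulator Chn2, with log2 differences of 0.85 to 1.21, and that of Rasl11b was 0.73 without vehicle 2.

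**Figure D4:**
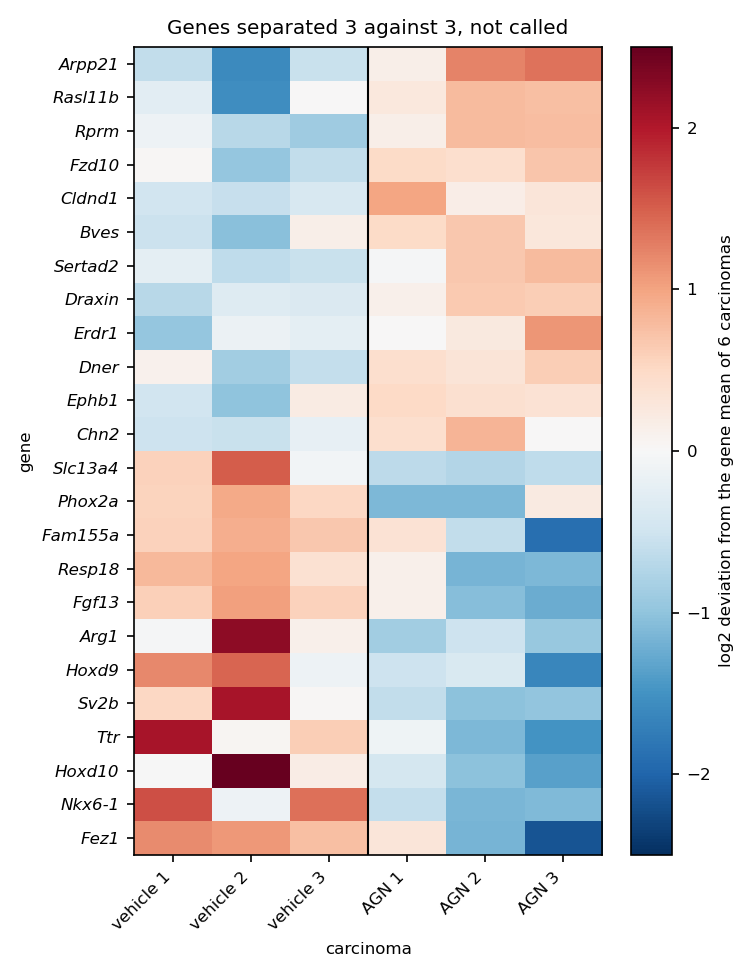
Log2 deviation of each carcinoma (columns) from the gene's mean over the 6 carcinomas for the 24 genes (rows) named as separated 3 against 3 but not called, ordered from the highest to the lowest AGN minus vehicle difference, red above and blue below the mean. AGN 1 is closest to the vehicle tumours in Fez1, Fam155a, Resp18 and Fgf13, AGN 3 in Phox2a, and vehicle 2 stands far above the other tumours in Hoxd10, Arg1 and Sv2b.

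Gene classes were described through 59 lists, 42 of pathways and 17 of cell type markers, by the share of measured members separated 3 against 3. These shares are read against 6.91% higher and 3.49% lower over all genes off chromosome 19. Among genes above the median probe level the shares were 9.09% and 5.93%, the nearer measure for lists of bright genes. Above it lay 16 of 17 sterol synthesis, 29 of 31 complex I and 34 of 37 other respiratory chain members. Listed symbols that were not found were matched through synonyms, which brought in genes foreign to their class. These were Olfr48 among complement genes, Dspp among junction genes, Pigq in glycolysis and Nckap1 among imprinted genes. They count in the sizes, shares and medians of those lists, and none of them was separated. Of the 7 called genes, 5 were list members (Dbx1, Sct, Tac1, Dusp26 and Wfdc12). Differences of genes not called often rested on 1 tumour: of 186 such genes taken from the lists and the naming rule, 128 moved by over 1.5 times or changed sign when 1 carcinoma was left out. Among the 73 of them that were separated, 30 moved by over 1.5 times and 0 changed sign.

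Transcription factors of neural fate did not share 1 direction. The list of neural tube patterning homeobox genes held 32 measured members, among them Olig2 and Ptf1a, which have no homeobox. Of the 32, 1 was called (Dbx1), 3 were separated and higher and 1 lower, with a median log2 difference of 0.03. Only 7 of the 32 lay above the median probe level. Dbx2, the closest relative of Dbx1, lay at 130.0 to 153.6 in all 6 carcinomas. Nkx6-1, a factor of ventral neural tube and of pancreatic beta cells, had 978.9, 294.0 and 834.7 in vehicle carcinomas and 213.1, 145.4 and 149.0 in AGN carcinomas (log2 difference -1.90 ± 0.37, limma adjusted p = 0.14). Its AGN values were at the level of the wild-type prostates (153.4 and 139.9) in tumours 2 and 3. Lhx1, a LIM homeobox factor, had 186.2, 243.2 and 238.3 against 247.4, 290.0 and 308.1.

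In the list of 29 neural and neuroendocrine transcription factors, 0 were called, 4 had an unadjusted limma p under 0.05, and 3 were separated in each direction. The 3 higher ones had small log2 differences, Neurod1 0.07, Nkx2-1 0.06 and Nhlh1 0.10. The 3 lower ones had larger differences, Myt1 -0.92, Onecut2 -0.60 and St18 -0.56. Phox2a, a factor of noradrenergic neurons that is not in this list, was among the 12 lowest genes, with 599.0, 793.0 and 583.7 against 188.1, 189.1 and 476.0 (-1.35 ± 0.31, adjusted p = 0.206). Myt1, a zinc finger factor of neural differentiation, had 1083, 2439 and 1044 against 833.3, 638.2 and 763.9, a log2 difference of -0.92 that was -0.52 without vehicle 2. Isl1 and Nkx2-2 overlapped between groups, and vehicle 2 alone held the Isl1 signal, at 1102 against 155.2 to 228.7 in the other 5. Insm1 and Foxa2 overlapped too, with log2 differences of 0.29 ± 0.15 and -0.45 ± 0.21.

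Of 36 Hox genes, which encode position along the body axis, 2 were separated and higher and 2 lower. The 2 higher ones, Hoxc6 and Hoxd4, had small log2 differences of 0.05 and 0.18. The 2 lower ones adjoin in the Hoxd cluster. Hoxd10 had 393.4, 2442 and 451.1 in vehicle carcinomas and 293.0, 195.1 and 154.9 in AGN carcinomas (log2 difference -1.87 ± 0.56, limma adjusted p = 0.421). Hoxd9 had 1215, 1455 and 486.9 against 372.4, 406.6 and 171.7 (-1.68 ± 0.40, adjusted p = 0.227). Vehicle 2 decided the size for Hoxd10, whose difference was -1.03 without it. Their neighbours did not all follow: Hoxd8 overlapped (-0.43 ± 0.20), Hoxd4 was higher in all 3 AGN carcinomas (0.18 ± 0.13), and Hoxd11, Hoxd12 and Hoxd13 lay between 138.0 and 164.1 throughout.

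Peptide hormones and neuropeptides held 31 measured members, of which Sct rose and Tac1 fell. Altogether 3 were separated and higher and 2 lower, and 8 lay above the median probe level. Pdyn, the precursor of dynorphins, overlapped between groups, with 1223, 310.2 and 207.8 in vehicle carcinomas and 232.8, 152.3 and 169.6 in AGN carcinomas. Of 23 receptors for such peptides, 3 lay above the median probe level. Ramp1, a partner subunit of the calcitonin gene-related peptide receptor, was separated and lower, at 321.0, 798.9 and 492.3 against 235.4, 264.8 and 209.0 (-1.09 ± 0.26, limma adjusted p = 0.227). The substance P receptor Tacr1 lay at 152.9 to 179.0 in all 6.

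Granins and prohormone processing genes fill the dense-core vesicle. Of 16 measured, 0 were called (2 at an unadjusted limma p under 0.05), 0 were separated and higher and 2 lower, and the median log2 difference was -0.12. Resp18, an endocrine vesicle protein, had 2161, 2449 and 1604 in vehicle carcinomas and 1339, 549.8 and 566.0 in AGN carcinomas (-1.45 ± 0.31, adjusted p = 0.168). Scg2, secretogranin II, had 635.5, 562.6 and 265.1 against 194.1, 146.3 and 211.5 (-1.33 ± 0.28, adjusted p = 0.163), and AGN 2 lay below both wild-type prostates (167.2 and 200.5). Chga stood apart from these, with a log2 difference of 0.22 ± 0.18 and overlapping groups. Another Chga probe was separated and higher, at 853.5, 855.7 and 898.6 against 1146.2, 1058.7 and 1549.9. Ttr, the thyroid hormone carrier transthyretin, which endocrine tumours can secrete, was among the 12 lowest genes, at 2746, 686.7 and 1007 against 614.7, 302.2 and 233.7 (-1.82 ± 0.47, adjusted p = 0.289).

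The machinery of vesicle release had 22 measured members, 0 of them called and 4 at an unadjusted limma p under 0.05. Lower and separated were 3 members (13.6%), 1 was higher (4.55%), and the median log2 difference was -0.17, the lowest among the 42 pathway lists. Sv2b, a synaptic vesicle glycoprotein, had 613.8, 1787 and 436.1 in vehicle carcinomas and 277.7, 211.1 and 216.1 in AGN carcinomas (-1.75 ± 0.40, adjusted p = 0.206), and the difference was -1.15 without vehicle 2. Sncg, gamma-synuclein, had 361.4, 337.0 and 356.0 against 262.3, 186.0 and 172.5 (-0.79 ± 0.15, adjusted p = 0.135). Syt4, a synaptotagmin, had 780.8, 231.9 and 166.5 against 155.3, 148.6 and 156.7. Its separation rested on vehicle 3, just above AGN 3, and its difference was -0.36 without vehicle 1. Syp, synaptophysin, overlapped (-0.25 ± 0.19).

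Of 29 genes of the neuronal cytoskeleton and axon, 3 were separated and higher and 1 lower, with a median of 0.02. None was called, and 8 members had an unadjusted limma p under 0.05, the highest count of the 59 lists. The lower one, the neurofilament gene Nefm, had 721.4, 805.8 and 348.7 in vehicle carcinomas and 216.3, 210.4 and 286.5 in AGN carcinomas (-1.32 ± 0.27, limma adjusted p = 0.163). Stmn2 and Ncam1 had log2 differences of -1.77 ± 0.60 and -0.87 ± 0.31, and their groups overlapped. That of Ncam1 was -0.44 without vehicle 2. Among 22 voltage-gated and potassium channel genes, Cacna2d1, an auxiliary calcium channel subunit, had 3290, 2420 and 2509 against 1995, 1600 and 876.3 (-0.95 ± 0.27, adjusted p = 0.383), and the difference was -0.60 without AGN 3.

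In signalling classes Dusp26 was the called gene. The list of dual-specificity and MAPK phosphatases held 24 measured members, among them Spry1, Spry2, Spry4, Spred1 and Spred2, which are not phosphatases. No other member was separated, and the next largest differences were those of Dusp8 (-0.56 ± 0.20) and Dusp10 (-0.37 ± 0.16). Of 23 immediate early genes, which follow MAP kinase and stress signals, 3 were separated and higher and 2 lower. Fos had 300.7, 345.4 and 331.9 in vehicle carcinomas and 306.2, 213.3 and 205.1 in AGN carcinomas, where AGN 1 again lay with the vehicle tumours. Fgf13, an intracellular relative of the fibroblast growth factors that binds sodium channels, had 772.5, 1042 and 759.4 against 556.4, 243.5 and 215.6 (-1.46 ± 0.30, limma adjusted p = 0.163). Its other 2 probes, both dim, overlapped between groups (-0.26 and 0.03). Of 29 growth factor and receptor tyrosine kinase genes, 2 were separated and higher and 2 lower. Pdgfra, a receptor for platelet-derived growth factor, had the largest positive difference of the list, with overlapping groups: 727.8, 189.4 and 1625 in vehicle carcinomas and 1183, 1067 and 1317 in AGN carcinomas.

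Wnt, TGF-beta and Notch lists gave shares near the background. In the Wnt list 2 of 33 members were separated and higher and 1 lower, in the TGF-beta and BMP list 1 of 28 higher and 2 lower, in the Notch list 0 of 22 higher and 1 lower, and in the Hedgehog list 0 of 11 in either direction. Tgfb3, a ligand, had 434.9, 411.5 and 445.2 in vehicle carcinomas and 380.2, 293.8 and 255.3 in AGN carcinomas (-0.49 ± 0.15, limma adjusted p = 0.439). Hey1, a Notch target, overlapped (-0.47 ± 0.31). In these 4 lists limma called 0 genes and 4 had an unadjusted p under 0.05.

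Cell cycle genes held 0 called members. Of 36 mitosis genes, 3 were separated and higher and 1 lower, and 0 had an unadjusted limma p under 0.05. Aurka, a spindle kinase, ran from 1358 to 1502 in vehicle carcinomas and had 1637, 1386 and 2684 in AGN carcinomas. Of 29 DNA replication genes, 3 were separated and higher and 2 lower, among them Tyms, thymidylate synthase, with 1881, 2254 and 1784 against 2528, 2545 and 2656 (0.39 ± 0.14, adjusted p = 0.64). G1 control had 0 higher and 3 lower (12.5%) of 24, and 4 members had an unadjusted limma p under 0.05. The cell cycle inhibitor Cdkn2b had 338.3, 232.3 and 287.3 against 175.9, 175.9 and 205.9 (-0.61 ± 0.14, adjusted p = 0.2). Cdkn1a, the p53-regulated inhibitor p21, had 1765, 2614 and 1881 against 1732, 903.1 and 1582 (-0.60 ± 0.25, adjusted p = 0.753), and this difference was -0.31 without AGN 2.

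Polycomb and DNA methylation factors, which silence genes through histone and DNA marks, had 3 of 17 members separated and higher (17.6%) and 1 lower, with 0 called and 3 at an unadjusted limma p under 0.05. Ezh2, the histone H3 methyltransferase of polycomb, had 1503, 1724 and 1788 in vehicle carcinomas and 1905, 2204 and 2263 in AGN carcinomas (0.35 ± 0.15, adjusted p = 0.776). Further Ezh2 probes, at lower intensities, overlapped between groups, with log2 differences of 0.069 and 0.004. Dnmt3b, a DNA methyltransferase, had 294.9, 279.2 and 279.0 against 320.4, 356.6 and 394.2. Ring1 ran the other way, at 506.6, 551.9 and 481.8 against 425.7, 369.2 and 356.7. The list median of 0.06 was 0.02 after quantile normalization.

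Among metabolic classes the sterol synthesis list had the largest share of separated members. Of 17 measured enzymes and regulators of cholesterol production, 5 were higher in all 3 AGN carcinomas (29.4%) and 0 lower, 0 were called, and 4 had an unadjusted limma p under 0.05. Cyp51, the sterol demethylase, had 476.5, 508.9 and 453.4 in vehicle carcinomas and 637.9, 637.3 and 770.8 in AGN carcinomas (0.50 ± 0.14, adjusted p = 0.344). Hsd17b7, which acts at a later step of the pathway, had 580.5, 798.3 and 603.5 against 866.8, 945.6 and 937.9 (0.49 ± 0.16, adjusted p = 0.535). Fdps, farnesyl diphosphate synthase, had 2716, 3437 and 2623 against 4073, 3637 and 3457. The other separated members were Lss (0.26 ± 0.10) and Pmvk (0.20 ± 0.12). The median difference of the 17 genes was 0.18, 0.19 after quantile normalization and 0.15 after median centring, beside 0.04 over all genes off chromosome 19. It was 0.10 without AGN 3 and 0.25 without vehicle 2, whose mean log2 level of the list, 8.996, was the highest of the vehicle carcinomas and close to the 9.01 to 9.05 of the AGN carcinomas.

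Respiratory chain genes outside complex I had 6 of 37 members separated and higher (16.2%) and 0 lower, with a median of 0.10. The largest of the 6 was Atp5pb, an ATP synthase subunit, at 2096, 2106 and 1738 in vehicle carcinomas and 3436, 2508 and 2136 in AGN carcinomas (0.42 ± 0.19, limma adjusted p = 0.805), and its difference was 0.23 without AGN 1. Complex I had 3 of 31 higher (9.68%), close to the 9.09% of genes above the median probe level, and 0 lower. In the 2 lists together limma called 0 genes, and 2 had an unadjusted p under 0.05. Their level was highest in AGN 2, with mean log2 values of 11.22 and 11.02 against 10.96 to 11.07 and 10.78 to 10.93 in the other carcinomas, and without AGN 2 the medians were 0.07 and 0.03.

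In glycolysis the glucose transporter gene Slc2a3 had 481.3, 414.6 and 532.8 in vehicle carcinomas and 866.4, 697.3 and 717.4 in AGN carcinomas (0.68 ± 0.15, limma adjusted p = 0.2), and 3 of 22 members were separated and higher and 0 lower. Fatty acid synthesis and oxidation had 2 of 17 in each direction. Acadvl, which starts the oxidation of very long chains, had 801.1, 882.6 and 804.2 against 655.1, 567.0 and 514.0 (-0.52 ± 0.14, adjusted p = 0.35). Arg1, arginase 1, which feeds polyamine synthesis with ornithine, had 546.2, 2642 and 610.1 against 306.6, 390.5 and 289.4 (-1.56 ± 0.47, adjusted p = 0.441), and the difference was -0.82 without vehicle 2. Glutathione and xenobiotic enzymes, a class relevant to plant compounds, had 4 of 48 separated and higher and 1 lower, with 0 called and 4 at an unadjusted p under 0.05.

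Stress and translation classes had few separated members. Ribosomal proteins of the cytosol had 0 of 35 in either direction, with a median log2 difference of 0.00 that moved to -0.04 after median centring. Unfolded protein response genes had 0 of 25 higher and 1 lower, and heat shock genes 2 of 17 (11.8%) in each direction. Of these 17 genes 16 lay above the median probe level, where the shares were 9.09% higher and 5.93% lower. Bag3, a co-chaperone, had 1424, 1939 and 2031 in vehicle carcinomas and 1378, 1122 and 1049 in AGN carcinomas (-0.60 ± 0.18, limma adjusted p = 0.444). Apoptosis regulators had 1 of 20 in each direction, the lower one being Casp8 at 350.6, 349.1 and 312.7 against 242.7, 296.8 and 250.8. The list of Wfdc and Kunitz-type protease inhibitors held 26 measured members, of which Wfdc12 fell. It also includes Serpina1c and the seminal vesicle genes Svs1, Svs2, Svs3a, Svs4, Svs5 and Svs6, which lie outside those families. Svs4 was the other member separated and lower, at 318.0, 200.8 and 180.0 against 170.7, 149.5 and 156.3.

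The remaining pathway lists had few separated members each. Of 22 p53 targets 1 was higher and 2 lower, of 21 imprinted genes 1 in each direction, of 18 hypoxia genes 1 higher, of 20 zinc transporters and metallothioneins 1 higher, of 13 polyamine genes 1 in each direction, of 21 complement and acute phase genes 1 higher, and of 36 junction and adhesion genes 1 higher and 2 lower. Nnat, an imprinted gene of developing brain, was the imprinted gene separated and higher, with 2655, 2723 and 2583 in vehicle carcinomas and 6456, 3265 and 2834 in AGN carcinomas (0.56 ± 0.26, limma adjusted p = 0.827). AGN 1 stood far above the other 5 tumours in Nnat, and without it the difference was 0.20.

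**Figure D5:**
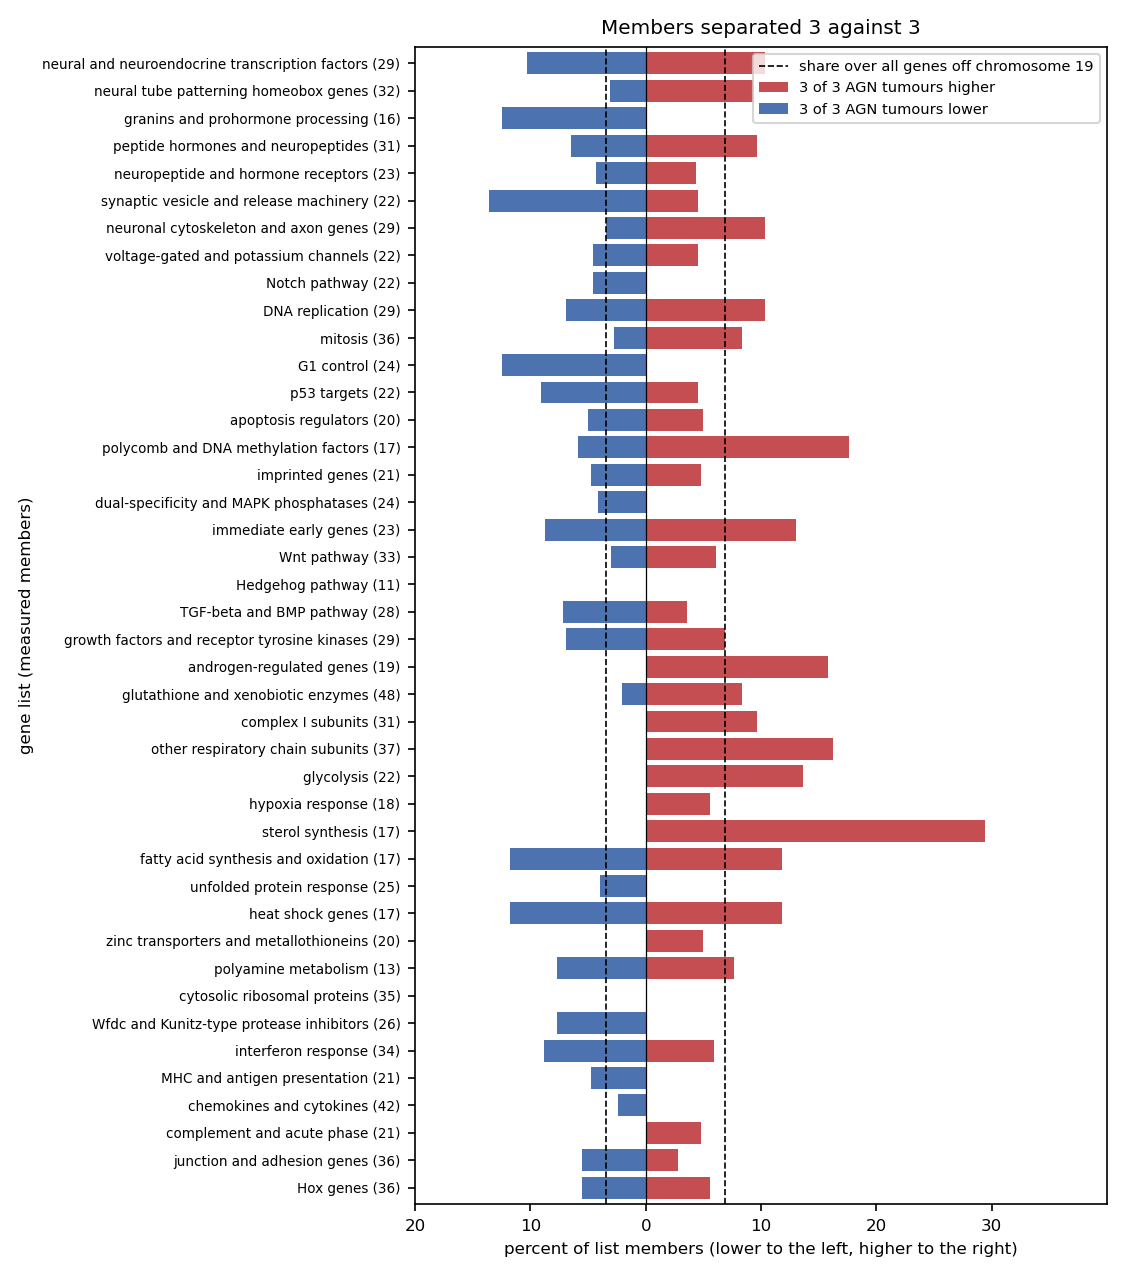
Share of the measured members of 42 pathway lists (vertical axis, number measured in brackets) whose 3 AGN values lie all above (red, to the right) or all below (blue, to the left) the 3 vehicle values, in percent. Dashed lines mark 6.91% higher and 3.49% lower over all genes off chromosome 19, and sterol synthesis has the longest bar, 29.4% higher. The shares among genes above the median probe level, 9.09% higher and 5.93% lower, are not drawn.

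Immune classes were uneven within the groups. In the interferon response 2 of 34 genes were separated and higher and 3 lower, among chemokines and cytokines 0 of 42 higher and 1 lower, and in MHC and antigen presentation 0 of 21 higher and 1 lower. H2-Ab1, a class II MHC chain, had 2644, 364.3 and 390.2 in vehicle carcinomas and 821.1, 1573 and 1044 in AGN carcinomas. Its log2 difference was 0.61 ± 0.61 with vehicle 1 and 1.55 without it, so vehicle 1 set its size. Macrophage markers had a median difference of -0.29 and 0 of 19 members separated, and the median was 0.12 without vehicle 1. Their summed intensity was 10138 to 33898 in vehicle carcinomas and 11527 to 14685 in AGN carcinomas.

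Endothelial markers had a median difference of -0.24, which was -0.05 without vehicle 1, and 0 of 18 were separated. Red blood cell markers had the lowest median of the 59 lists, -0.81 over 7 members. Alas2, which starts haem synthesis in red cells, had 721.5, 283.8 and 2680 in vehicle carcinomas and 391.7, 230.7 and 210.5 in AGN carcinomas. Vehicle 3 and vehicle 1 were high, vehicle 2 lay within the AGN range, and the median was -0.57 without vehicle 3, -0.50 without AGN 3 and -1.22 without vehicle 2. Fibroblast, smooth muscle and pericyte markers had 0 separated members of 23, 12 and 10.

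Secretory genes of the prostate were the marker class with the largest share of members higher in AGN carcinomas, 4 of 14 (28.6%). The share was 6.91% over all genes and 9.09% among genes above the median probe level, where 12 of the 14 lay over the 16 arrays. The median log2 difference of the list was only 0.06, beside 0.04 over all genes off chromosome 19. Defb50, a defensin, had 132.2, 150.2 and 147.4 in vehicle carcinomas and 182.7, 3233 and 435.3 in AGN carcinomas (2.15 ± 0.76, limma adjusted p = 0.605). Msmb, beta-microseminoprotein, had 138.3, 150 and 139.8 against 207.1, 2777 and 297.3 (1.96 ± 0.73, adjusted p = 0.642). Azgp1, a zinc-binding glycoprotein, had 143.3, 150.1 and 145.9 against 157.2, 651.3 and 269.1, and the immunoglobulin receptor Pigr had 134.6, 157.4 and 147.4 against 163.3, 267.5 and 206.1. AGN 2 was the highest tumour in all 4, AGN 3 the next, and AGN 1 lay just above the vehicle carcinomas. Without AGN 2 the log2 differences of Defb50, Msmb and Azgp1 were 0.98, 0.80 and 0.49. Another Azgp1 probe overlapped between groups, at 134.2, 153.9 and 139.8 in vehicle carcinomas and 147.1, 214.0 and 176.0 in AGN carcinomas. Wild-type prostates had 47330 and 53860 for Defb50, far above every carcinoma, and Pbsn stayed at the dim-probe level in all 6. The summed intensity of the 14 markers was 1972 to 2157 in vehicle carcinomas and 2229 to 8808 in AGN carcinomas. Among 19 androgen-regulated genes, 3 were separated and higher (15.8%) and 0 lower: Azgp1, which is in both lists, Slc45a3 and Acsl3. Above the median probe level, where 15 of the 19 lay, the share was 9.09%, and the list median was 0.04. Slc45a3 had the tumour order of the 4 secretory genes, at 170.7, 305.5 and 208.1 in AGN carcinomas against 161.9 to 169.9 in vehicle carcinomas. Its difference of 0.42 was 0.19 without AGN 2. Acsl3 had another order, at 828.1, 1031 and 1020 in vehicle carcinomas and 1074, 1107 and 1625 in AGN carcinomas. Its difference of 0.38 was 0.19 without AGN 3, and its other probes, both dim, had 0.05 and 0.20.

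Neuroendocrine markers as a class had 0 of 14 members called and 2 at an unadjusted limma p under 0.05, with 0 separated and higher, 1 lower (Scg2) and a median of -0.10. Their mean log2 level was 9.96, 10.14 and 9.99 in vehicle carcinomas and 10.04, 9.64 and 9.66 in AGN carcinomas, against 7.68 and 7.79 in the wild-type prostates. AGN 1 lay within the vehicle range, and AGN 2 and 3 lay below it. Eno2, neuron-specific enolase, had 1367, 1822 and 1855 against 1864, 1025 and 522.1 (-0.74 ± 0.36, limma adjusted p = 0.871), with AGN 1 at the top of the vehicle range and AGN 2 and 3 below it. Without AGN 3 its difference was -0.27.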

How the data were processed

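RNA of prostate tissue was measured on Illumina mouse bead arrays. The deposited table holds linear intensity values that the authors normalized, and the submitters' processing notes name lumi with no version. How values were normalized and background treated is not given in the sources used here. A deposited table of values before normalization, with 32 per-sample columns whose names match no label, was not used, so no detection calls were applied. The platform annotation named 23978 of 25697 probes with 1 symbol, 0 with several and 1719 with none, and 23962 matched RefSeq (GRCm38.p6) by Entrez identifier, used for chromosomes. They cover 16593 genes, 4777 with more than 1 probe. Of these genes, 577 lie on chromosome 19 and 11 have no chromosome.

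Intensities were brought to log2 with no pseudocount. The fit of the 6 carcinoma arrays used limma 3.58.1 under R 4.3.3 (lmFit, eBayes with an intensity trend, two-sided). The number of arrays limits the precision. The interaction with DLP used all 16 arrays, with DLP in an additive model of treatment and age. In simulated data with 200 changed probes, the fit called 60 of 100 probes changed by 1 on the log2 scale, 94 of 100 changed by 2, and 10 of 25497 unchanged probes. The changed probes were drawn from the brighter probes only, so these rates do not cover dim probes. The simulated noise was independent between probes, without shifts shared by many genes of 1 tumour. With 200 changed probes the adjusted threshold was also easier to reach than in the real fit, which called 10 probes. The rates therefore do not measure the sensitivity of the real comparison.

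Named by rule were all called genes, the 12 highest and 12 lowest separated genes at an unadjusted p under 0.01 other than unnamed clones, the 3 largest differences of each list described, and the identity genes Chga, Syp, Insm1, Ddc, Foxa2, Ezh2 and Pbsn. Not all of them are described in the text, among them Slc13a4 (log2 difference -1.34), Mmp2 (-1.17), Gadd45a (0.755) and Psmb9 (-0.69). The relatives and receptors of called genes (Dbx2, Sctr, Tacr1), further probes, the Hoxd neighbours, Lss, Pmvk and Pigr were chosen after their values were seen. So were Neurod1, Nkx2-1, Nhlh1, Onecut2, St18 and Hoxc6. The comparison, the lists and the members were chosen with earlier results of these data known. Alternatives covered scaling, background, a filter on dim probes, the trend, array weights, the arrays fitted, a replicate block, the probe per gene and leaving out tumours.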

Additional observations from a re-analysis of the deposited data

Results flagged for a closer look

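For 4 probes limma's interaction test called a difference between the AGN effect in carcinomas and that in DLP, given here as the difference of effects on the log2 scale. Dbx1 had 3.65 (adjusted p = 0.017, 0.000423 to 0.044 over the alternatives run for this term), and its AGN values in DLP were at the dim-probe level at both ages. Fam171b had -1.67 (adjusted p = 0.017, 0.000423 to 0.0493 over the alternatives). The clone 6330403K07Rik had -2.96 (adjusted p = 0.0281, 0.000423 to 0.0625 over the alternatives, and 0.0509 without an intensity trend). Sct had 1.5 (adjusted p = 0.0281, 0.0102 to 0.0625 over the alternatives), from an AGN effect of 1.27 in carcinomas and -0.22 in DLP. All 3 AGN carcinomas showed the direction in each of the 4 genes. These 4 genes were also called between the same carcinoma arrays, so this is no separate support for the term. DLP had 1 array per treatment and age, so its AGN effect rests on 2 arrays of AGN mice.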

How the results depend on the processing

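Over all probes 10 were called. The number was 215 in a fit of all 16 arrays, 35 without an intensity trend, 405 with array weights computed gene by gene (chosen after seeing the data), 6 after quantile normalization, 6 after median centring, 0 with normexp, 0 with probes above the median level only, 0 without vehicle 1 and AGN 2, and 7 to 72 without 1 tumour. Off chromosome 19, against 7 calls, the same settings gave 77 (16 arrays), 182 (weights), 0 (normexp), 0 (filter), 0 (without vehicle 1 and AGN 2) and 6 to 52 (without 1 tumour). Called list members numbered 5, then 3 after quantile normalization, 3 after median centring, 8 with chromosome 19 members kept and 3 to 14 without 1 tumour. The interaction, whose alternatives were also chosen after seeing the data, gave 4 calls, 11 without a trend and 3 to 28 without 1 tumour. Genes separated and lower numbered 559, and 937 after quantile normalization, 976 after median centring and 1104 with normexp; separations were not recounted with fewer tumours, which changes them by construction. Replicate numbers did not pair the tumours: the deviations of same-numbered tumours correlated at -0.039, -0.26 and 0.164. With the replicate number as a block, limma called 502 probes and 314 genes off chromosome 19. All 7 called genes remained called with the block, with 16 arrays, with weights and without a trend; Wfdc12 was not called in the fit with the wild-type prostates (adjusted p = 0.128). Over all alternatives 88 values of called genes kept their call and 31 lost it, and none changed direction. Without 1 tumour, 21 of 186 named genes not called changed sign, 0 of them separated; without vehicle 1 these include Ccl8 (-0.43 to 0.50), Des (-0.54 to 0.64), Hp (-0.42 to 0.52), Ndn (-0.43 to 0.47) and C1qc (-0.41 to 0.18). Ddc (-0.01) changed sign too: its difference ran from -0.31 to 0.19 without 1 tumour, above 0 without AGN 2, AGN 3 (0.08) or vehicle 3 (0.07), and was 0.14 without vehicle 1 and AGN 2. The cause of these changes was not tested.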

Other observations

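These genes were chosen after their values were seen. The first 6, Gch1 to Defb42, were separated with a log2 difference of at least 1 in size. Gch1, which makes the cofactor of dopamine synthesis, had 642.9, 837.5 and 504.4 in vehicle carcinomas and 359.1, 338.0 and 261.7 in AGN carcinomas (log2 difference -1.03 ± 0.19, limma adjusted p = 0.135). Ets2, a transcription factor downstream of MAP kinases, had 1813, 2329 and 1136 against 847.6, 718.2 and 777.9 (-1.11 ± 0.23, adjusted p = 0.163). Csrp2, a LIM domain protein, had 2720, 3257 and 2642 against 2007, 1032 and 1103, and Elmo1, which acts with Dock proteins on Rac, had 825.2, 616.2 and 1211 against 409.6, 408.2 and 449.8. Zic1, a zinc finger factor of the dorsal neural tube, had 185.5, 823.7 and 228.6 against 151.1, 150.1 and 150, so vehicle 2 alone was far above the dim-probe level. None of these genes was called. Defb42, a defensin gene, had 132.7, 148.5 and 140.0 against 183.0, 983.8 and 151.9, with AGN 2 the highest tumour as in Defb50. Spink8, a protease inhibitor of the seminal vesicle marker list, overlapped between groups, with 2803 in AGN 2 and 131.7 to 209.3 in the other 5 carcinomas.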
